A study of Mus musculus with 28 samples.

Results

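The 10 genes described here are transducers and targets of the canonical Wnt pathway, followed through 3 stages of molar development in the mouse. They were chosen by name from the 52636 genes of a table of RNAseq read counts. They comprise Ctnnb1, which encodes β-catenin, the 4 genes of the TCF/LEF transcription factors Lef1, Tcf7, Tcf7l1 and Tcf7l2, the receptor genes Lrp6, Lgr4 and Lgr5, and the feedback targets Axin2 and Nkd1. Each library was made from total RNA of a single first molar tooth germ of the C57BL/6JOlaHsd strain, with epithelium and mesenchyme together. There were 7 teeth from 7 embryos at E13 (bud stage), 7 teeth from 6 embryos at E14 (cap stage) and 7 teeth from 5 embryos at E16 (bell stage), which the labels call E13.5, E14.5 and E16.5. The labels name no treatment and no mutation for these teeth. A further table holds teeth of wild type E15 embryos of the same strain and is described after the main comparisons. The stages were compared to ask how the pathway genes change while the tooth proceeds from bud to bell.

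In canonical Wnt signalling, a Wnt ligand binds a Frizzled receptor together with Lrp6 or Lrp5, which stops the destruction complex of Axin, APC and GSK3 from marking β-catenin for degradation. β-catenin then enters the nucleus and binds the TCF/LEF factors, of which LEF1 and TCF7 are known mainly as activators and TCF7L1 mainly as a repressor. R-spondins, bound by the LGR receptors, keep Wnt receptors at the cell surface, and AXIN2 and NKD1 dampen the pathway that induces them. In the tooth, LEF1 is known to be needed for development beyond the bud stage, and the pathway is active in the enamel knots, the epithelial signalling centers.

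The libraries held from 17814073 to 27115729 counted reads, and at least 342 reads for each of the 10 genes in each tooth. Levels are given as CPM, read counts scaled to a common library size, after TMM normalization, which adjusts library sizes so that most genes do not differ. Of the 52636 genes, 19101 passed the filter on low counts, all 10 Wnt genes among them, and were tested in a single edgeR fit, with a gene called at a Benjamini-Hochberg adjusted p below 0.05. The left tooth of embryo 3 at E16 stood apart from the other teeth. Its genes deviated from the median of the other E16 teeth by a median of 0.49 on the log2 scale, compared to between 0.14 and 0.18 for the other E16 teeth. In this tooth the summed level of 12 mesenchyme markers was 3113 CPM, and in the other E16 teeth from 6961 to 8495 CPM. The sum of 6 osteoblast markers was 1249 CPM against 4885 to 6608 CPM, that of 5 endothelium markers 136 CPM against 369.7 to 443 CPM, and that of 12 epithelium markers 2602 CPM against 3752 to 4304 CPM. The tooth also had the lowest E16 level of 8 of the Wnt genes and the highest of Lgr4. Many of the changes of the Wnt genes that involve E16, and the counts of calls it moves, are therefore also given without it.

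Markers of the tissues of the tooth moved with stage. The summed level of the 12 epithelium markers ranged from 912 to 1377 CPM at E13, from 1843 to 2344 CPM at E14 and from 2602 to 4304 CPM at E16, and 11 of the 12 rose from E13 to E14 and 10 of the 12 from E14 to E16. Of the 8 enamel knot markers, 7 rose from E13 to E14, and their summed level went from between 22.6 and 36.4 CPM to between 104 and 154 CPM. From E14 to E16, 3 of them rose and 2 fell. Their sum at E16 was 118 CPM in the left tooth of embryo 3 and 233 to 308 CPM in the other teeth. The 12 mesenchyme markers summed to 7308 to 8255 CPM at E13 and 6871 to 7911 CPM at E14, with 1 higher and 3 lower at E14, and 1 higher and 6 lower at E16 than at E14. At E16 they summed to 3113 CPM in the left tooth of embryo 3 and to 6961 to 8495 CPM in the other teeth. The counts of epithelium and enamel knot markers were the same without the left tooth of embryo 3, and those of mesenchyme markers were 3 higher and 4 lower at the earlier step and 2 higher and 7 lower at the later one. No marker of these 3 lists was at 0 in all teeth of a stage. The part of tissue makeup in the results below was not tested, and in whole tooth germs fewer cells of a type and less RNA per cell cannot be told apart.

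From E13 to E14, 5 of the 10 Wnt genes changed. Lef1, Tcf7 and Nkd1 were higher at E14, where 11.3% of all tested genes were called higher, and Lgr5 and Axin2 were lower, where 8.47% of all tested genes were called lower. From E14 to E16, Lef1, Tcf7 and Lgr4 rose, against 15% of all tested genes called higher, and Tcf7l1 and Lrp6 fell, against 13.1% called lower. Between E13 and E16, 8 of the 10 differed, with Lef1, Tcf7, Lgr4 and Nkd1 higher at E16 (21.6% of all tested genes) and Tcf7l2, Lrp6, Lgr5 and Axin2 lower (19.6%). The median log2 change of the 10 genes was 0.02 at each step, compared to −0.01 and 0.00 for all tested genes, and −0.11 from E13 to E16, compared to −0.01. Without the left tooth of embryo 3, 6 genes were called from E13 to E14, 6 from E14 to E16 and 8 between E13 and E16. In that fit 16.7% and 13.8% of all tested genes were called higher and lower from E13 to E14, 18.5% and 15.8% from E14 to E16, and 25.5% and 23.1% between E13 and E16.

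**Figure D1:**
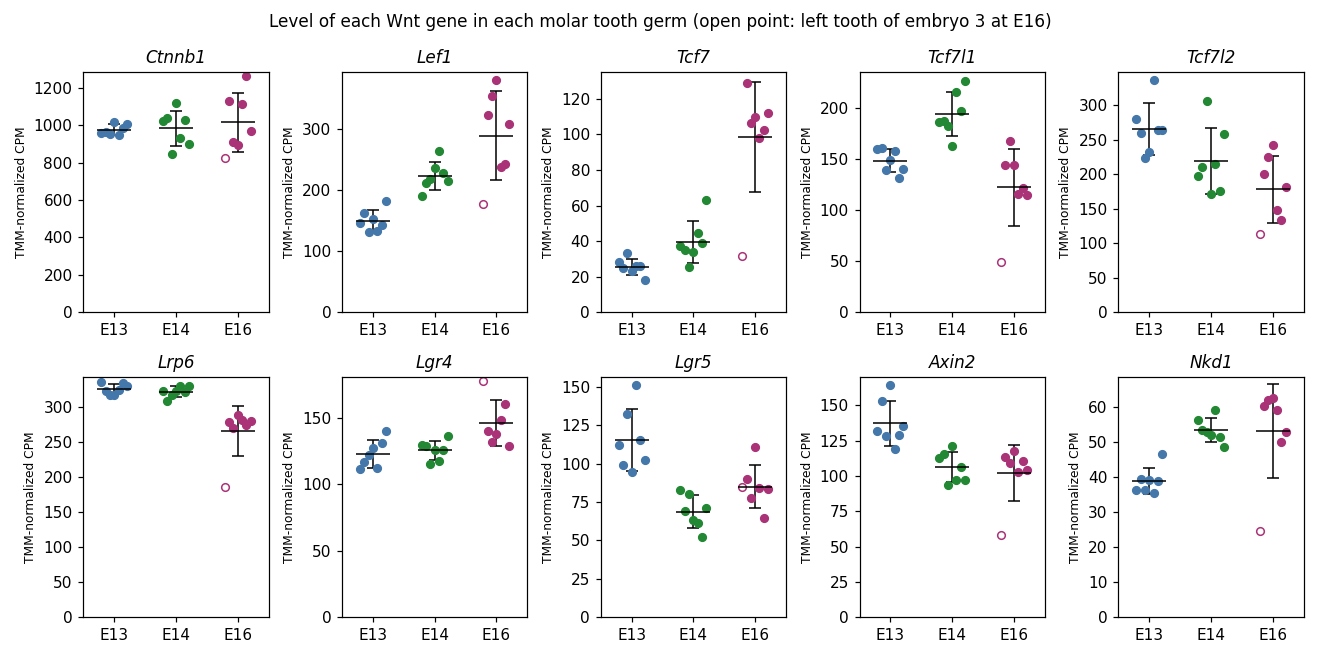
TMM-normalized CPM (y axis, from 0, a separate scale for each gene) of the 10 Wnt genes in each of the 7 teeth of E13, E14 and E16 (x axis), with the mean (horizontal bar) and SD (error bars). Tcf7 rises from a mean of 25.5 to 98.5 CPM, Lgr5 drops from 115 to 68.7 CPM at E14, and the open point, the left tooth of embryo 3 at E16, lies below the other E16 teeth for 8 of the genes.

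Ctnnb1 (ENSMUSG00000006932, GRCm38 chr9:120929216-120960507) encodes β-catenin, the transducer that carries the signal to the nucleus. Its lowest, median and highest levels were 947, 967 and 1018 CPM at E13, 846, 1023 and 1120.5 CPM at E14, and 823, 972 and 1265 CPM at E16. The stages overlapped. Between the E13 teeth the coefficient of variation was 2.82%, between the E14 teeth 9.57% and between the E16 teeth 15.5%, or 13.9% without the left tooth of embryo 3. The log2 change was 0.01 ± 0.09 (SE) from E13 to E14 and 0.05 ± 0.09 from E14 to E16, and no change was called (edgeR, adjusted p = 0.954 and 0.744). Exons of Ctnnb1 share 759 bases with Ulk4 on the opposite strand, and whether the counting used strand is not given in the sources used here.

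Among the TCF/LEF factors, Lef1 (ENSMUSG00000027985, chr3:131110471-131224356), an activator of the pathway's target genes, rose at both steps. The lowest, median and highest teeth had 131, 147 and 181 CPM at E13, 189.8, 218 and 264 CPM at E14, and 178, 309 and 381 CPM at E16. All E14 teeth were above all E13 teeth, while the E16 teeth spread over a wide range that overlapped both. Only the left tooth of embryo 3 was within the E13 range, and the other E16 teeth had at least 239 CPM. From E13 to E14, Lef1 was 1.49-fold higher (log2 change 0.57 ± 0.13 SE, edgeR adjusted p = 0.00197). At the later step, it was 1.30-fold higher (log2 change 0.38 ± 0.13, edgeR adjusted p = 0.0262, range 0.000381 to 0.0637 over 29 alternatives), and 1.40-fold higher without the left tooth of embryo 3 (adjusted p = 0.000381). This step was not called without the left or without the right E16 tooth of embryo 6 (adjusted p = 0.0518 and 0.0615), the teeth with the highest Lef1 levels. An antisense gene, Gm43352, shares 1208 exon bases with Lef1.

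Tcf7 (ENSMUSG00000000782, chr11:52252371-52283014), which encodes TCF1, the closest relative of LEF1 in its role as activator, had the largest change of the 10 genes between E13 and E16. Over the 7 teeth of each stage, the lowest, median and highest levels were 18.2, 25.8 and 33.1 CPM at E13, 25.6, 37.0 and 63.3 CPM at E14, and 31.6, 106 and 129 CPM at E16. The lowest E16 value was that of the left tooth of embryo 3, and the other 6 E16 teeth had at least 98.2 CPM, above all E13 and E14 teeth. At E16 Tcf7 was 2.48-fold higher than at E14 (log2 change 1.31 ± 0.21 SE, edgeR adjusted p = 3.87e-05), and without this tooth 2.80-fold higher. Between E13 and E16 it was 3.86-fold higher (edgeR adjusted p = 8.37e-08), and 4.34-fold without this tooth. The earlier step was smaller and less secure. Tcf7 was 1.55-fold higher at E14 than at E13 (log2 change 0.64 ± 0.21, edgeR adjusted p = 0.0365), and this was called under 19 of 29 alternatives, with adjusted p from 0.00119 to 0.52. It was not called without the left tooth of embryo 2 or 7, the right tooth of embryo 5 or 9 or the tooth marked X at E13, nor without the left or right tooth of embryo 6 or the left tooth of embryo 8 at E14 (adjusted p from 0.0504 to 0.112).

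Tcf7l1 (ENSMUSG00000055799, chr6:72626378-72789254), a repressor of Wnt targets where β-catenin is absent, peaked at E14. The lowest, median and highest of its 7 values per stage were 132, 149.6 and 161 CPM at E13, 163, 187 and 227 CPM at E14, and 49.0, 122 and 168 CPM at E16. All E14 teeth were above all E13 teeth, with a 1.31-fold higher level that was not called with all 21 teeth (log2 change 0.39 ± 0.16 SE, edgeR adjusted p = 0.0836, range 0.000179 to 0.555 over 29 alternatives) but was called without the left tooth of embryo 3 at E16 (log2 change 0.38 ± 0.08, adjusted p = 0.000798). Between cap and bell stage, Tcf7l1 fell to 0.631 of its level (log2 change −0.66 ± 0.16, edgeR adjusted p = 0.00217), and to 0.701 without this tooth, so that the highest E16 tooth exceeded only the lowest E14 tooth. Gm15401, an antisense gene, shares 179 exon bases with Tcf7l1.

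Tcf7l2 (ENSMUSG00000024985, chr19:55741820-55933654), the family member known for its roles in gut and brain, was lower at E16 than at E13. Over the teeth, the lowest, median and highest levels were 223, 264 and 338 CPM at E13, 171, 211 and 306 CPM at E14, and 114, 182 and 242 CPM at E16. Neighbouring stages overlapped, and neither step was called on its own (edgeR, adjusted p = 0.209 and 0.145). Between E13 and E16 the level fell to 0.670 (log2 change −0.58 ± 0.15 SE, edgeR adjusted p = 0.00338), and to 0.718 without the left tooth of embryo 3.

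**Figure D2:**
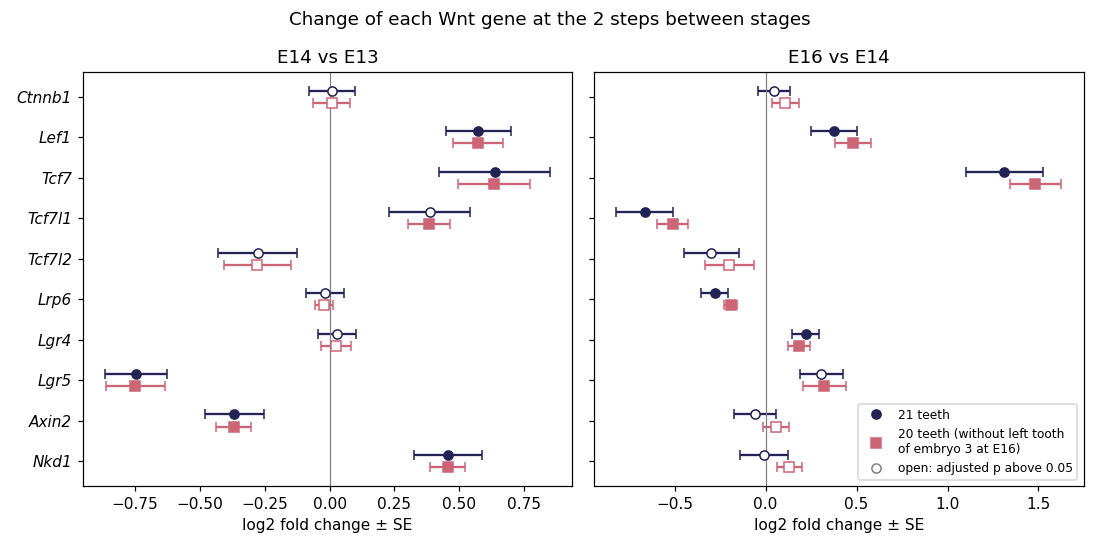
Log2 fold change with SE (x axis) of the 10 Wnt genes (y axis) from E13 to E14 (left) and from E14 to E16 (right), fitted with all 21 teeth (circles) or without the left tooth of embryo 3 at E16 (squares), filled where the adjusted p was below 0.05. Lef1 and Tcf7 lie above 0 at both steps, while Tcf7l1 lies above 0 at E14 (0.39) and below it at E16 (−0.66).

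To compare the 4 TCF/LEF genes with each other, CPM were divided by the exon length of each gene (RPKM), and each gene was expressed as a share of the summed RPKM of the 4 genes in the same tooth. At E13, Tcf7l1 and Tcf7l2 led with 39.9% ± 1.73 and 31.8% ± 2.91 (SD, n = 7), and Lef1 and Tcf7 made up 18.04% ± 2.36 and 10.3% ± 2.09. At E14, the share of Tcf7l1 was 43.0% ± 1.92, that of Lef1 22.2% ± 2.74, that of Tcf7l2 21.7% ± 3.99 and that of Tcf7 13.02% ± 2.73. At E16, Tcf7 held 30.2% ± 5.12 and Lef1 27.5% ± 3.72, ahead of Tcf7l1 with 25.3% ± 2.5 and Tcf7l2 with 17.0% ± 2.86. Lef1 and Tcf7 together thus went from 28.3% ± 2.17 at E13 and 35.3% ± 3.04 at E14 to 57.7% ± 2.28 at E16, and the E16 range of 54.1% to 60.9% did not overlap the E14 range of 29.8% to 39.4%. The left tooth of embryo 3 was within the E16 range with 55.9%, although its summed RPKM of 57.7 was the lowest of all teeth. With the length of the longest transcript in place of all exons, the E16 shares were 38.6% for Lef1, 18.9% for Tcf7, 19.2% for Tcf7l1 and 23.3% for Tcf7l2, so that the order of the 4 genes depends on the transcripts assumed.

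**Figure D3:**
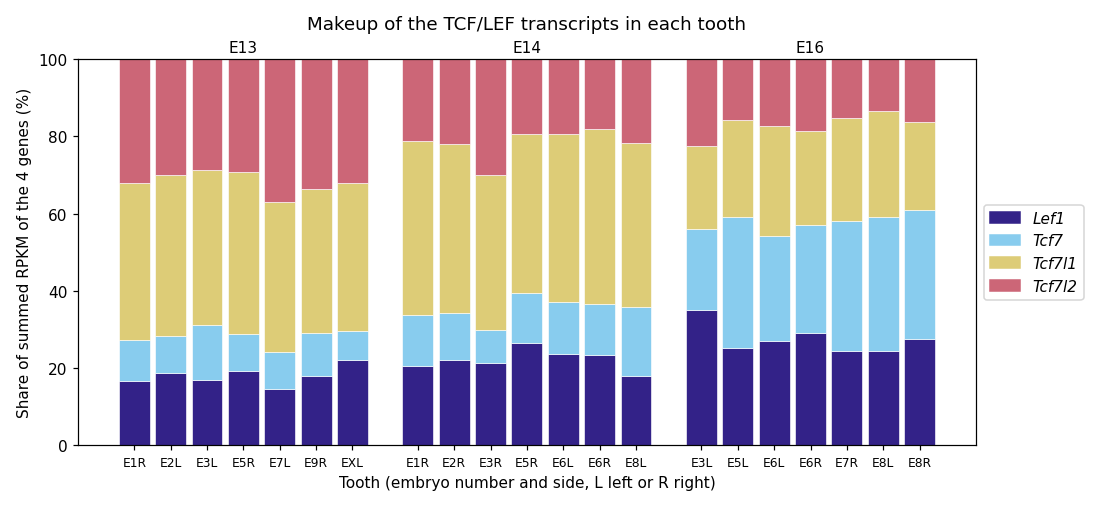
Share of the summed RPKM of Lef1, Tcf7, Tcf7l1 and Tcf7l2 in percent (y axis) in each of the 21 teeth, grouped by stage (x axis, with embryo number and L for left or R for right). The 2 lower segments, Lef1 and Tcf7, reach 24.1% to 31.1% of the bar at E13, 29.8% to 39.4% at E14 and 54.1% to 60.9% at E16.

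RefSeq start sites of 8 of the 10 genes were searched for the core of the motif that TCF/LEF factors bind, as CTTTGA or CTTTGT on either strand (TCAAAG or ACAAAG when read on the other), in 14 windows from 250 bases before to 50 bases after the start. A core was present in 3 of these windows, each from a TCF/LEF gene itself, and in 31.2% of the 32851 windows of all genes in the GRCm38.p6 table. Most of the 14 windows were themselves from TCF/LEF genes. The other windows of Lef1 and Tcf7l2 had no core, and neither had those of Tcf7, Ctnnb1, Lgr4, Axin2 and Nkd1. Lrp6 and Lgr5 were not matched. The 3 windows with a core are shown. The cores are in capitals, and each sequence runs 5′ to 3′ along the gene. For Lef1 and Tcf7l2 the start lies within the gene, and for Tcf7l1 it is close to the annotated beginning of the gene on the minus strand. A match of these letters is a description of the sequence and not a binding site.
Lef1, chr3:131156044-131156343, plus strand: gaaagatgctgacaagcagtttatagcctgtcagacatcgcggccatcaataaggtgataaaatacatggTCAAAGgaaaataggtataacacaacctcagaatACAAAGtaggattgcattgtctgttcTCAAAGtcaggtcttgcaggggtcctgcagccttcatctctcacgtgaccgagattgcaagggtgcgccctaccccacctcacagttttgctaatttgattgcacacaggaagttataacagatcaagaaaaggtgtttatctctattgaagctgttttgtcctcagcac
Tcf7l1, chr6:72788996-72789295, minus strand: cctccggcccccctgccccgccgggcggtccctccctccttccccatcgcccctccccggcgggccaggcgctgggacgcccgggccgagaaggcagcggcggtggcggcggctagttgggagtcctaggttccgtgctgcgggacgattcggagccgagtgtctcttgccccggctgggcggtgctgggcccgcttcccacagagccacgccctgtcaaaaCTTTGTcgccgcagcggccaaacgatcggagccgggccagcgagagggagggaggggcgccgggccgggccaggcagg
Tcf7l2, chr19:55895071-55895370, plus strand: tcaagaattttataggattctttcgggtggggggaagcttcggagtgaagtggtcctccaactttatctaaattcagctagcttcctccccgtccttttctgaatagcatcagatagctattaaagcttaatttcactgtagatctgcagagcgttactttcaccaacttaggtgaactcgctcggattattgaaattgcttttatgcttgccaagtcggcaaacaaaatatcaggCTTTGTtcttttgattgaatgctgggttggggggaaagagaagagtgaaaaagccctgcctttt

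Of the receptor genes, Lrp6 (ENSMUSG00000030201, chr6:134446476-134566965), the co-receptor that recruits Axin to the membrane, was level between bud and cap and lower at the bell stage. Lowest, median and highest levels of the 7 teeth were 317, 324 and 335 CPM at E13, 308, 322 and 329.9 CPM at E14, and 185, 278 and 288 CPM at E16. All E16 teeth were below all E13 and E14 teeth, whose values varied by only 2.29% and 2.32% (coefficient of variation) between teeth. The log2 change from E13 to E14 was −0.02 ± 0.07 (SE, edgeR adjusted p = 0.896). From E14 to E16, Lrp6 fell to 0.824 of its level (log2 change −0.28 ± 0.07, edgeR adjusted p = 0.0061), and to 0.875 without the left tooth of embryo 3 (adjusted p = 0.000172).

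Lgr4 (ENSMUSG00000050199, chr2:109917647-110014257), an R-spondin receptor, had the smallest called rise. Its lowest, median and highest levels were 112, 122 and 140.2 CPM at E13, 115, 126 and 137 CPM at E14, and 129, 139.8 and 177 CPM at E16, and the stages overlapped. The highest E16 value came from the left tooth of embryo 3. At the later step, Lgr4 was 1.16-fold higher (log2 change 0.22 ± 0.07 SE, edgeR adjusted p = 0.0281, range 0.0114 to 0.0778 over 29 alternatives), and 1.14-fold higher without this tooth (adjusted p = 0.0196). The step was called under 25 of those alternatives.

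Lgr5 (ENSMUSG00000020140, chr10:115450311-115587780), an R-spondin receptor and target of the pathway that marks stem cells in several epithelia, had the largest fall of the 10 genes at the cap stage. The lowest, median and highest teeth had 94.7, 112 and 151 CPM at E13, 52.1, 69.5 and 83.1 CPM at E14, and 64.5, 83.97 and 110.5 CPM at E16. All E14 teeth were below all E13 teeth, and the E16 teeth lay between and overlapped both. At E14 Lgr5 was at 0.596 of its E13 level (log2 change −0.75 ± 0.12 SE, edgeR adjusted p = 5.97e-05). At E16 the level was 1.24-fold higher than at E14, just short of the threshold (edgeR adjusted p = 0.0547, range 0.0179 to 0.119 over 29 alternatives), and 1.25-fold higher without the left tooth of embryo 3 (adjusted p = 0.0372). It was also called without any one of the left teeth of embryos 3 and 7 and the tooth marked X at E13, the right teeth of embryos 1 and 3 at E14, and the left teeth of embryos 6 and 8 at E16 (adjusted p from 0.0179 to 0.0475). Between E13 and E16 it fell to 0.737 (edgeR adjusted p = 0.00406).

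The 2 feedback targets moved in opposite directions at the cap stage. Axin2 (ENSMUSG00000000142, chr11:108920349-108950783), a scaffold of the destruction complex that is widely used as a readout of canonical Wnt signalling, had lowest, median and highest levels of 119, 132 and 165 CPM at E13, 93.6, 107 and 122 CPM at E14, and 58.4, 109 and 118 CPM at E16. The E13 and E14 ranges overlapped slightly, and all E16 teeth were below all E13 teeth. From E13 to E14 Axin2 fell to 0.775 (log2 change −0.37 ± 0.11 SE, edgeR adjusted p = 0.0234, range 0.000194 to 0.0618 over 29 alternatives). This was not called without the left tooth of embryo 2 or the right tooth of embryo 5 at E13 (adjusted p = 0.0506 and 0.0618), the highest E13 teeth, nor without the right tooth of embryo 3 or the left tooth of embryo 6 at E14 (adjusted p = 0.0502 for either). Between cap and bell stage, the log2 change was −0.06 ± 0.11, and 0.06 ± 0.07 without the left tooth of embryo 3, with no call either way (edgeR, adjusted p = 0.744 and 0.578). An antisense gene, Gm11670, shares 209 exon bases with Axin2.

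Nkd1 (ENSMUSG00000031661, chr8:88521354-88594884), which encodes a Dishevelled-binding antagonist, had lowest, median and highest levels of 35.5, 38.9 and 46.6 CPM at E13, 48.5, 52.9 and 59.1 CPM at E14, and 24.6, 59.0 and 62.5 CPM at E16. All E14 teeth were above all E13 teeth, and so were the E16 teeth apart from the left tooth of embryo 3, which was the lowest of all 21. Nkd1 was 1.37-fold higher at E14 than at E13 (log2 change 0.46 ± 0.13 SE, edgeR adjusted p = 0.0164). From E14 to E16, the log2 change was −0.01 ± 0.13, and 0.13 ± 0.07 without this tooth (edgeR, adjusted p = 0.969 and 0.152). Between E13 and E16 it was 1.36-fold higher (edgeR adjusted p = 0.00864), and 1.499-fold without this tooth.

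Whether a gene's change from E14 to E16 differed from its change from E13 to E14 was tested in the same fit. The steps share the E14 teeth, so that a high or low E14 level moves both. Of all tested genes, 13.7% were called in either direction, and of the 10 Wnt genes 2 were. For Tcf7l1 the later change was lower by 1.05 on the log2 scale (difference −1.05 ± 0.27 SE, edgeR adjusted p = 0.00857), with a level that was highest at E14. For Lgr5 it was higher (difference 1.05 ± 0.21, edgeR adjusted p = 0.0011), with a level that was lowest at E14. Without the left tooth of embryo 3 at E16, 6 of the 10 were called, where 10.2% of all tested genes were called higher and 10.5% lower. The further 4 were Tcf7 and Axin2, with a higher later change (differences 0.85 and 0.43, edgeR adjusted p = 0.0145 and 0.0127), and Lrp6 and Nkd1, with a lower one (differences −0.17 and −0.33, edgeR adjusted p = 0.046 and 0.0456). With all 21 teeth, the adjusted p of these 4 was 0.245, 0.331, 0.192 and 0.188.

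Ordered by level per exon length, Ctnnb1 was first at all stages, with a mean of 188 RPKM at E13, 189.6 RPKM at E14 and 196 RPKM at E16, and its lowest tooth was above the highest tooth of any other of the 10 genes. At E13, Tcf7l1 (37.9 RPKM), Tcf7l2 (30.3), Axin2 (24.9), Lrp6 (23.8), Lgr4 (20.9), Lef1 (17.1), Lgr5 (11.2), Tcf7 (9.72) and Nkd1 (8.54) followed, and all of these neighbours overlapped in range except Lef1 and Lgr5. At E14, Tcf7l1 (49.5 RPKM) was set apart from Lef1 (25.4) below it, and Lgr5 (6.69) was last, below the range of Nkd1 (11.7). At E16, Tcf7 had moved to the position after Ctnnb1 with 37.5 RPKM, followed by Lef1 (33.0) and Tcf7l1 (31.2), and all neighbours below Ctnnb1 overlapped. With the longest transcript as length, Tcf7 was in position 5 at E16 and Lef1 in position 2.

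A table of counts estimated by salmon adds E15, between cap and bell, for 6 teeth, beside 7 E13 and 7 E16 teeth, of which 6 and 7 are matched by label to teeth of the other table. The E15 teeth come with collection and processing notes of their own, so that stage and processing cannot be told apart in comparisons with E15, and the table was fitted on its own. From E13 to E15, Lef1, Tcf7 and Nkd1 were higher and Tcf7l2 was lower, where 18.3% of the 13447 tested genes were called higher and 8.49% lower. Lef1 had a mean of 173 ± 20.3 CPM at E13 (SD, n = 7), 354 ± 84.8 at E15 (n = 6) and 335 ± 77.3 at E16 (n = 7), and was 2.04-fold higher at E15 than at E13 (edgeR adjusted p = 1.85e-05). Its log2 change from E15 to E16 was −0.08 ± 0.15 (SE, edgeR adjusted p = 0.878), and no change was called. Tcf7 had a mean of 29.2 ± 5.30 CPM at E13, 54.1 ± 7.01 at E15 and 115 ± 35.2 at E16. It rose 1.85-fold to E15 (edgeR adjusted p = 0.00152) and 2.13-fold from E15 to E16 (adjusted p = 0.000977). Whether the changes of Lef1 and Tcf7 differed was not tested. Tcf7 was the only one of the 10 genes called from E15 to E16, where 3.64% of all tested genes were called higher and 2.69% lower.

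In the same table, Tcf7l2 had a mean of 289 ± 39.6 CPM at E13, 199.8 ± 63.2 at E15 and 195 ± 51.5 at E16, and was at 0.692 of its E13 level at E15 (edgeR adjusted p = 0.0344). Its 6 E15 values fell into 2 separate sets, with 139.6, 143 and 144 CPM in the teeth of embryos 3, 1 and 4 and 253, 258 and 261 CPM in those of embryos 5, 8 and 6. The former were below all E13 teeth, which ranged from 243 to 364 CPM, and the latter were within the E13 range. The same sets of teeth did not overlap for Ctnnb1, with 1343 to 1439 CPM against 789 to 963 CPM, or for Lef1, with 268 to 303 CPM against 384 to 457 CPM. Nor did they overlap for Lgr4 (170 to 209 against 125 to 143 CPM) and Lgr5 (81.3 to 109 against 129.5 to 140 CPM). They were set apart more narrowly for Tcf7 (45.0 to 54.4 against 55.8 to 64.6 CPM) and Lrp6 (330 to 361.9 against 362.6 to 426 CPM). For Tcf7l1, Axin2 and Nkd1 they overlapped. The labels name no batch that separates these teeth. The sets were seen in the values of Tcf7l2 and were not tested. The share of all tested genes that separate the same teeth was not counted, so the separations cannot be read as particular to the Wnt genes. Lef1 was above the highest E13 tooth of 211 CPM in both sets. Nkd1 went from 42.9 ± 4.07 to 55.9 ± 5.55 CPM at E15 (1.30-fold, edgeR adjusted p = 0.0457). Lgr5 was at 138 ± 23.2 CPM at E13, 115 ± 22.1 at E15 and 105 ± 16.9 at E16, and Tcf7l1 at 165 ± 12.5, 159.6 ± 27.5 and 137 ± 40.9 CPM, with no call at either step. Between E13 and E16, 7 of the 10 genes were called with these counts, where 21.7% of all tested genes were called higher and 14.7% lower. Lgr4, called with the other table, was not called with this one (1.20-fold, edgeR adjusted p = 0.0813). The genes called in this table were the same in all 3 comparisons without the left tooth of embryo 3 at E16, with Lgr4 at an adjusted p of 0.166.

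**Figure D4:**
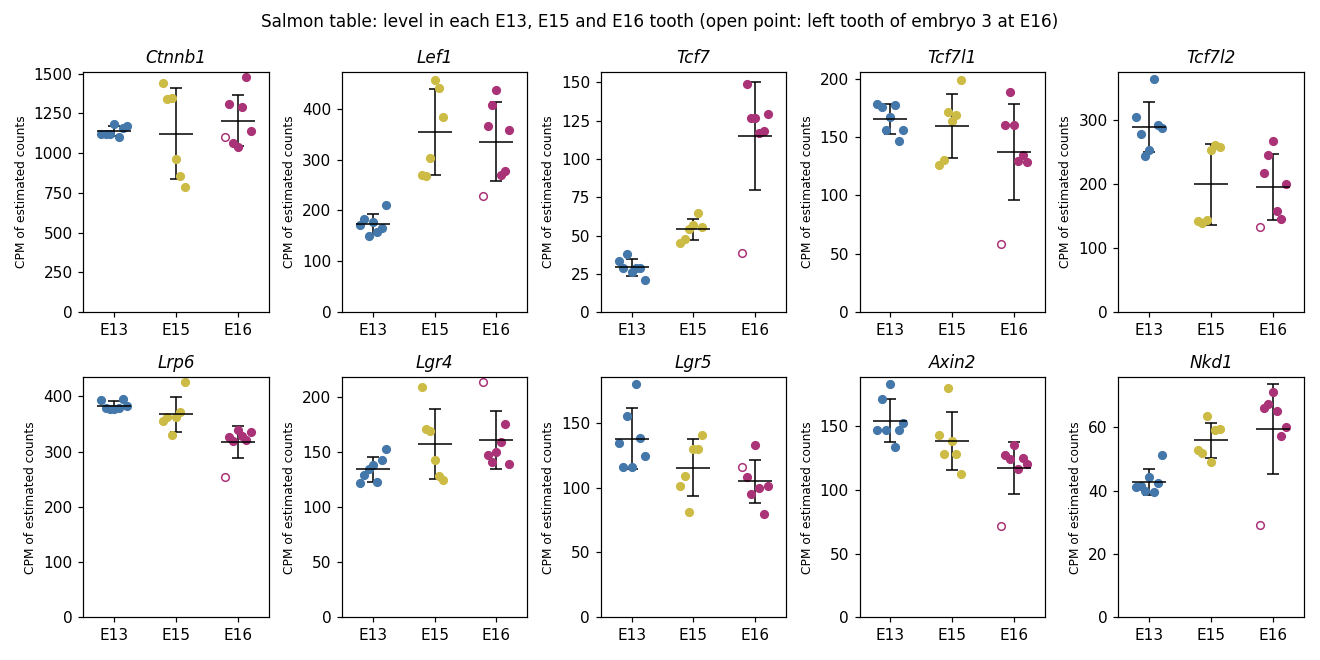
CPM of counts estimated by salmon (y axis, from 0, a separate scale for each gene) of the 10 Wnt genes in the 7 E13, 6 E15 and 7 E16 teeth (x axis), with the mean (horizontal bar) and SD (error bars). Lef1 has means of 354 CPM at E15 and 335 CPM at E16, while Tcf7 goes from 54.1 to 115 CPM between these stages.

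Other genes of the pathway were taken from 6 lists by function. The lists were made with earlier results of these data known, so their counts are a description and not independent evidence. The genes named are called genes with the largest changes of their list. Of all tested genes, 11.3% were called higher and 8.47% lower at the earlier step, and 15% and 13.1% at the later one. Without the left tooth of embryo 3 at E16, the shares were 16.7% and 13.8%, then 18.5% and 15.8%. Of 14 further Wnt targets, among them the secreted antagonists Dkk1, Dkk4 and Wif1 and the growth factors Fgf4 and Fgf20 of the enamel knot, 9 rose and 0 fell from E13 to E14, with a median log2 change of 0.90 against −0.01 for all tested genes. Dkk4 had 2 reads in all over the 7 E13 teeth and between 20 and 51 reads in each E14 tooth. Fgf4 rose from 0.480 ± 0.668 to 8.10 ± 2.68 CPM (SD, n = 7, edgeR adjusted p = 1.94e-07) and Dkk1 from 5.43 ± 2.01 to 34.7 ± 9.34 CPM (edgeR adjusted p = 1.66e-08). At the later step, 7 of the 14 rose and 3 fell. Wif1 rose from 47.4 ± 3.64 to 127 ± 34.3 CPM (edgeR adjusted p = 4.42e-08), whereas Fgf4 fell to 2.52 ± 0.666 CPM and Fgf20 from 2.76 ± 1.17 to 0.951 ± 0.370 CPM (edgeR adjusted p = 0.000991 and 0.0028). Fgf4 and Fgf20 are also among the enamel knot markers. Without the left tooth of embryo 3, 11 targets rose at the earlier step, and 8 rose and 3 fell at the later one.

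Of 8 genes of the co-receptor and R-spondin axis, which holds the ligands of Lgr4 and Lgr5, 5 rose from E13 to E14 and 0 fell, with a median log2 change of 0.40. The R-spondin gene Rspo4 rose from 0.502 ± 0.373 to 6.92 ± 1.82 CPM (edgeR adjusted p = 4.38e-08), Lgr6, the relative of Lgr4 and Lgr5, from 24.6 ± 5.08 to 46.4 ± 4.49 CPM (adjusted p = 1.49e-05) and Rspo1 from 15.8 ± 1.53 to 23.2 ± 3.38 CPM (adjusted p = 0.0206). All E14 teeth were above all E13 teeth for these 3 genes, which were named for the largest called changes of the list. Lgr5 fell at the same step, and a link between them was not tested. Among the 8, 3 rose and 1 fell from E14 to E16. Rspo2 rose from 13.8 ± 1.04 to 57.0 ± 7.17 CPM (4.12-fold, edgeR adjusted p = 4.03e-13) and Rspo3 fell from 22.1 ± 4.50 to 7.75 ± 0.826 CPM (adjusted p = 1.78e-09). Rnf43, which encodes a ligase that removes Wnt receptors from the cell surface, rose from 31.2 ± 2.40 to 49.7 ± 3.32 CPM (adjusted p = 5.55e-07). The E14 and E16 ranges of these 3 genes, named by the same rule, did not overlap. Among the 8, 4 rose and 1 fell at this step without the left tooth of embryo 3.

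Of the 10 Frizzled genes, Fzd1 rose from 139 ± 13.3 CPM at E13 to 246 ± 29.4 CPM at E14 (edgeR adjusted p = 0.00791) and no other was called. Between cap and bell stage, 3 Frizzled genes rose and 3 fell. Those that fell were Fzd1, to 139 ± 49.4 CPM (edgeR adjusted p = 0.00517), Fzd4, from 35.9 ± 6.98 to 22.7 ± 4.31 CPM (adjusted p = 0.00113), and Fzd9, from 2.85 ± 1.93 to 1.17 ± 0.537 CPM (adjusted p = 0.00817). Without the left tooth of embryo 3, 4 rose and 3 fell at the earlier step, and 4 rose and 5 fell at the later one. Inside the cell, at the earlier step, 0 of 3 Dishevelled genes, 1 of 11 genes of the destruction complex and 1 of 15 nuclear cofactors were called, with median log2 changes of −0.06, −0.07 and −0.01. Apc2, a relative of Apc, fell from 36.1 ± 4.61 to 19.5 ± 3.34 CPM (edgeR adjusted p = 3.53e-05), and Chd8, a chromatin remodeler that binds β-catenin, from 287 ± 12.1 to 255 ± 13.97 CPM (adjusted p = 0.0469). At the later step, Dvl2 (to 0.746 of its level, edgeR adjusted p = 0.00363), Amer1 of the destruction complex (to 0.857, adjusted p = 0.0339), Pygo2 (to 0.758, adjusted p = 0.0416) and Tle4 (to 0.877, adjusted p = 0.0404) fell, and Tle2 rose (1.15-fold, adjusted p = 0.0366). In the fit without the left tooth of embryo 3, 1 of 3 Dishevelled genes, 3 of 11 genes of the destruction complex and 2 of 15 nuclear cofactors were called at the earlier step, and 1, 2 and 6 at the later one. Pygo2 is a coactivator of β-catenin, and the Tle genes encode corepressors of the TCF/LEF factors.

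**Figure D5:**
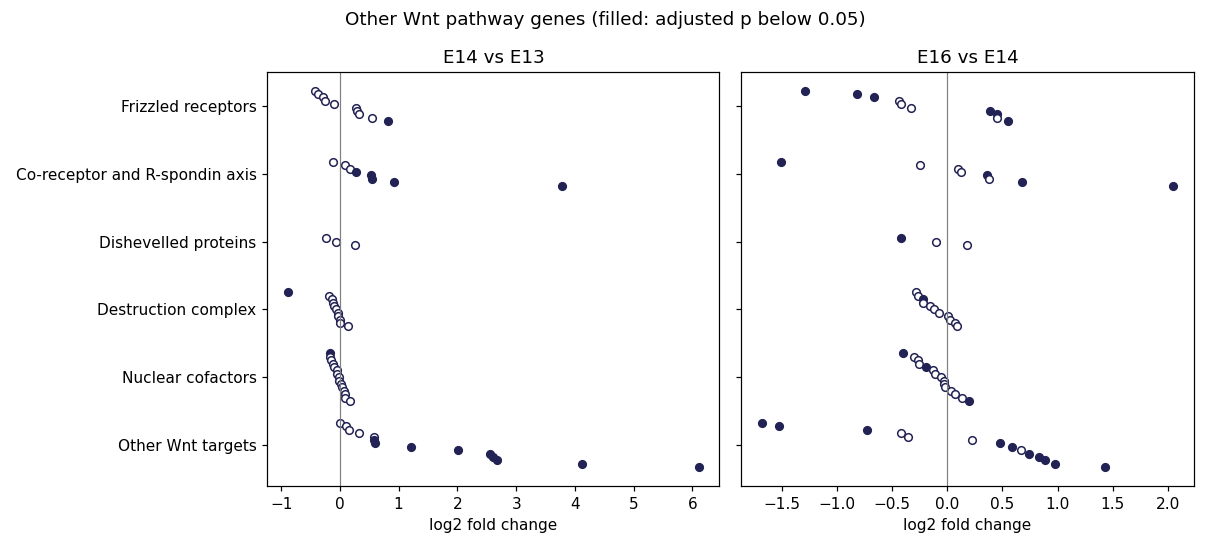
Log2 fold change (x axis) of each tested gene of 6 lists of other Wnt pathway genes (y axis) from E13 to E14 (left) and from E14 to E16 (right), filled where the adjusted p was below 0.05. The targets reach from about 0 to 6.11 at the earlier step, and the lowest gene at that step is Apc2 at −0.89.

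Left and right teeth were compared with stage as a further factor. None of the 10 genes was called, and 0% of the 19101 tested genes were called (edgeR), with 306 genes at an unadjusted p below 0.05, of which 0 were Wnt genes, and 12 genes called by DESeq2. The log2 differences of left minus right ranged from −0.13 ± 0.09 (SE) for Axin2 to 0.13 ± 0.18 for Tcf7.

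The genes most like each Wnt gene were found by the Pearson correlation of log2 CPM over the 21 teeth, which share stages and the left tooth of embryo 3. Tcf7 was most like Npnt, Pkp4 and Foxo1 (r from 0.959 to 0.962), and over the 20 other teeth r with these genes was from 0.961 to 0.962, where Rbm47 ranked highest with 0.982. Lef1 was most like Acer2, Irx1 and Itm2b (r from 0.937 to 0.947), and over the 20 other teeth r with these genes was from 0.938 to 0.947, where Ctnna1 ranked highest with 0.955. Between Lef1 and Tcf7 themselves r was 0.818, and 0.816 over the 20 teeth. For Nkd1 the most similar genes were Cdc42se1, St5 and Lamc1 (r from 0.949 to 0.956), and for Lgr5 they were Ypel1, Tmem200a and Srgap3 (r from 0.846 to 0.857). Over the 20 teeth, r was at least 0.918 for the former set and at least 0.852 for the latter, and the latter remained the 3 most similar genes. For Tcf7l1 (Carm1, Pold2 and Mta1), Lrp6 (Zcchc3, Nup93 and Khdrbs1) and Axin2 (Chd3, Zfp41 and Ppp6r2), r was from 0.937 to 0.979 over 21 teeth and from 0.878 to 0.944 over 20 teeth. Tcf7l2 was most like Zfp462, Nnat and Tox (r from 0.896 to 0.911), Ctnnb1 like Prr14l, Mapk14 and BC005537 (0.838 to 0.879) and Lgr4 like Lum, Dennd2c and Unc13b (0.833 to 0.84, and 0.727 to 0.781 over 20 teeth).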

How the data were processed

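The authors extracted total RNA from single tooth germs and made libraries with the Ovation Mouse Universal RNAseq System. They filtered the reads, aligned them with STAR to GRCm38 with Ensembl release 90, and deposited counts per gene made with HTSeq, as whole numbers without normalization. The authors also deposited Salmon estimated counts (version 0.99.0 in the submitters' processing notes) for 14185 genes. It has 6 E15 teeth, and 1 further E15 tooth is not analysed here. One E13 column with the embryo mark X was matched to its stage but not to a single sample label.

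The counts were fitted with edgeR 4.0.16 in R 4.3.3 (quasi-likelihood test, stage as factor, TMM, filterByExpr, Benjamini-Hochberg adjustment over 19101 genes). Names, positions, and lengths were from GENCODE M21 of GRCm38, which lacks 147 identifiers. The common coefficient of variation between teeth was 21.2%, so that teeth more than depth limit the precision. Teeth of 1 embryo were counted separately, as 1 pair at E14 and 2 pairs at E16. Each of the 63 pairs of teeth within a stage differed beyond sampling noise (smallest chi-square over its degrees of freedom 7.21). Correlations used log2(CPM + 0.5). The test was tested on simulated data. Genes named are the 10 Wnt genes, from each list up to 3 called genes with the largest change at each step, and for each Wnt gene the 3 most correlated protein-coding genes. The 10 genes and the lists were chosen with earlier results of these data known. Alternatives were DESeq2 1.42.0 size factors and Wald test, other filters, side or embryo number as factors, summed teeth of an embryo, 2 stages alone, the salmon table, another gene length, and each tooth left out. Figures were made with matplotlib 3.10.9.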

Additional observations from a re-analysis of the deposited data

Results flagged for a closer look

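In 5 of 30 sets of 7 teeth (10 genes at 3 stages), the highest or lowest tooth was separated from the next by more than Dixon's critical value for the gap over the range, a gap that chance gives in about 1 of 20 sets. In 4 of the 5, the tooth was the left tooth of embryo 3 at E16, which had 31.6 CPM of Tcf7 where the next lowest tooth had 98.2 CPM, 185 CPM of Lrp6 (next 269 CPM), 58.4 CPM of Axin2 (next 102.6 CPM) and 24.6 CPM of Nkd1 (next 50.04 CPM). The other was the E13 tooth marked X, which had 46.6 CPM of Nkd1 where the next highest had 39.4 CPM. The sets are not independent, since the same teeth enter for each gene.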

How the results depend on the processing

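Of 320 results of single genes under alternatives other than leaving out a tooth, 305 kept their direction and their side of the threshold, and of 840 with a tooth left out, 786 did. With embryo number as a replicate block, the number of Wnt genes called from E13 to E14 was 3 in place of 5, with Tcf7 (adjusted p = 0.52) and Nkd1 (0.0791) no longer called, and Lgr5 and Nkd1 were not called between E13 and E16 (0.103 and 0.0735). Over all genes from E13 to E14, the block gave 1093 higher and 584 lower calls in place of 2150 and 1617. Deviations of same-numbered teeth of different stages had a median correlation of 0.0722 over 15 pairs (−0.125 to 0.274). For differently numbered teeth of different stages it was −0.00638 over 132 pairs. Left and right teeth of the same embryo had −0.058 over 3 pairs, so this measure did not show even a shared embryo. Equal numbers at different stages belong to different embryos, so the block also joins teeth that share no embryo. With the 14 teeth of the 2 stages alone, 3 in place of 5 genes were called from E14 to E16, with Lef1 (0.0618) and Lgr4 (0.0693) not called, and Tcf7l1 was called from E13 to E14 (0.000179). With the teeth of an embryo summed, Tcf7 was not called from E13 to E14 (0.0704) and Lef1 not from E14 to E16 (0.0637). Lgr4 was not called from E14 to E16 without a filter, with side as a factor or with the block (0.0506, 0.0566 and 0.0777). When each tooth was left out, the Wnt genes called numbered 3 to 6 from E13 to E14, 4 to 6 from E14 to E16, 8 between E13 and E16, 2 to 6 for the difference of the steps and 0 for side. The directions that turned were all of uncalled changes. Leaving out a tooth gave log2 changes of Ctnnb1 from −0.025 to 0.0419 at the earlier step, from −0.0019 to 0.107 at the later one and from −0.0147 to 0.12 for their difference. For the later step of Axin2 they were from −0.0807 to 0.0574 and of Nkd1 from −0.0388 to 0.129, and for the difference of the steps of Tcf7l2 from −0.111 to 0.189. With side as a factor the later step of Nkd1 was 0.0064, and with the block the difference of the steps of Ctnnb1 was −0.0171. The cause of these changes was not tested. With the longest transcript as length, 15 of 30 positions in the order of levels moved.

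At 17814073 reads or more per tooth, the spread between 7 teeth and not depth limits these genes. Levels per length depend on which transcripts are used, which gene counts do not show. The 3 pairs of teeth from the same embryo were treated as separate replicates.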

Other observations

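Markers of other tissues were also measured. The shares of all tested genes called at each step, given above, apply to these counts as well. Of 6 osteoblast markers, 5 were tested, of which 1 rose at each step, Spp1 and then Alpl (2 at each, with Col1a1, without the left tooth of embryo 3 at E16). Sp7 and Ibsp were not called at either step in either fit. The summed level of the 6, which weighs markers by their abundance, had a median of 2361 CPM at E13, 3388 CPM at E14 and 6243 CPM at E16. Of 8 skeletal muscle markers, 2 fell from E13 to E14 and 1 from E14 to E16, and their sum was at most 60.9 CPM in 20 teeth and 317 CPM in the left tooth of embryo 7 at E13. Of 3 tested cartilage markers, 2 fell from E13 to E14, and 1 rose and 1 fell from E14 to E16, with summed medians of 157, 64.9 and 22.1 CPM at E13, E14 and E16. Of 5 macrophage markers, 3 rose at the earlier step and 2 at the later one (4 and 3 without that E16 tooth), with summed medians of 34.1, 56.4 and 82.2 CPM. Of 7 red blood cell markers, 1 rose and 1 fell at the earlier step and 1 fell at the later one (2 rose and 1 fell, and 1 rose and 1 fell, without that E16 tooth). Of 7 Schwann cell and neuron markers, 1 rose and 1 fell, and then 2 rose and 1 fell, and of 5 endothelium markers 0 were called at either step, but 2 rose at each step without that E16 tooth (edgeR, Pecam1 and Cdh5, then Pecam1 and Kdr). Whether any of these cells contributed to the levels of the Wnt genes was not tested.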
